A study of Mus musculus with 29 samples.

Results

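The genes described here encode 6 proteins that fat cells release into the blood or their surroundings: Lep (leptin), Adipoq (adiponectin), Retn (resistin), Cfd (complement factor D, also called adipsin), Rbp4 (retinol binding protein 4) and Nampt (nicotinamide phosphoribosyltransferase, also called visfatin). They were taken by name, as 6 of the 30818 gene rows of the table, and all 6 passed the minimum on low values. RNA was sequenced from normal mammary fat of wild-type C57BL/6N mice in 29 libraries. The series asks, by its title, how several forms of calorie restriction and a nonrestricted low-fat diet act on obesity-linked mammary tumor growth.

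There were 6 groups. ICR (5 libraries), MCR (4 libraries) and LFCR (5 libraries) came from mice that became obese on diet D12492, with 60% fat, and then lost weight under intermittent calorie restriction, a Mediterranean-style diet at 30% restriction and a low-fat diet at 30% restriction. LFD (5 libraries) came from mice made obese on the same diet and then given a low-fat diet without restriction. Obese (5 libraries) came from mice that stayed obese, and Control (5 libraries) from mice given the control diet D12450J. Every mouse, Control included, carried injected E0771 cells, a mouse mammary cancer line. The injection was made at week 25 into mammary fat pad 4, and the fat sequenced was pad 9 on the opposite side. The sample titles begin with "tumor" and some fields name the cell line, whereas the tissue field and the source name give normal tissue from the side without the injection. Each library has its own number in its title, and no label states that each is a separate mouse, so the p-values measure the spread between these samples.

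White fat stores energy and also acts as an endocrine organ. Leptin is secreted in proportion to fat mass and fat cell size and acts on the brain to limit food intake, and adiponectin, made almost only by fat cells, increases insulin sensitivity in liver and muscle. Resistin is made by fat cells in mice and opposes insulin action, complement factor D is the protease that starts the alternative complement pathway by cutting factor B, retinol binding protein 4 carries vitamin A in blood, and nicotinamide phosphoribosyltransferase is the rate-limiting enzyme that recycles nicotinamide into NAD.

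Libraries held between 16403903 and 49026986 reads assigned to genes (median 37270234), and each of the 6 genes had at least 1322 reads in every library. The shallow libraries, with at most 18212783 reads, were those of lane 4, and a lane held at most 1 library of a group. All 18 mature adipocyte markers and all 18 luminal epithelium markers had reads in every library, so the tissue holds the cells that its label names. The mean of 13 B cell markers split the libraries into 8 at 6.04 to 6.86 (log2) and 21 at 10.3 to 12.9 (log2). The 8 low ones were MCR 1, 3 and 4, LFCR 1 and 3, LFD 1, and Obese 1 and 5, with none from ICR or Control, and calls that change without them are given with that value.

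The promoters of 4 of the genes are shown because Retn, Cfd and Rbp4 moved together in the results and Lep moved the other way. Each run is the RefSeq sequence of GRCm38.p6 from 250 bases before to 50 bases after an annotated transcription start, 5′ to 3′ on the gene's strand, and capitals mark the motifs found. Motifs were searched on both strands and compared with their share among 32851 mouse promoters of the same length. The TATA box was searched as TATAAA, which 13.6% of those promoters hold. The letters bound by C/EBP factors, which drive fat cell genes, were TTGCNNAA, and 10.8% of promoters hold them. The E-box was searched as CACGTG, present in 7.15%, and the nuclear receptor half-site, on which PPAR and retinoid receptors bind, was searched as AGGTCA, present in 16.3%. A sterol element was searched as TCACNCCAC, present in 1.24%. The GC box was searched as GGGCGG, present in 35.7% of promoters.
Lep (chr6:29059971-29060270, plus strand): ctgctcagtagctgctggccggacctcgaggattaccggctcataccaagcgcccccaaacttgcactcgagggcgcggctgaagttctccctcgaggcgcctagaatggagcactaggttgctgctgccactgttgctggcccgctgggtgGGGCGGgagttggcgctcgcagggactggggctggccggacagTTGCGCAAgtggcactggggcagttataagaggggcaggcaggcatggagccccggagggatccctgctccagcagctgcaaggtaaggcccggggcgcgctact
Retn (chr8:3655520-3655819, plus strand): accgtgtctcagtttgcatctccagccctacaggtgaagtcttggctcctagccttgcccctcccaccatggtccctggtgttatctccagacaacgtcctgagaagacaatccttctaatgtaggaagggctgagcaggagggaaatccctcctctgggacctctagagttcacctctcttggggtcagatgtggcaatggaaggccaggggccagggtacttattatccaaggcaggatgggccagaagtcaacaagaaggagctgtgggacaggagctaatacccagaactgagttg
Cfd (chr10:79890603-79890902, plus strand): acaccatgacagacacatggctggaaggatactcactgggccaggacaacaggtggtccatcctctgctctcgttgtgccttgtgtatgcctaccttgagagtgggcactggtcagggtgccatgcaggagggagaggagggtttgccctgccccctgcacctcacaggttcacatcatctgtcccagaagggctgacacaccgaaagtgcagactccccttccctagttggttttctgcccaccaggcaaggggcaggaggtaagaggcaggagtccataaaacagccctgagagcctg
Rbp4 (chr19:38124762-38125061, minus strand, the second of its annotated starts): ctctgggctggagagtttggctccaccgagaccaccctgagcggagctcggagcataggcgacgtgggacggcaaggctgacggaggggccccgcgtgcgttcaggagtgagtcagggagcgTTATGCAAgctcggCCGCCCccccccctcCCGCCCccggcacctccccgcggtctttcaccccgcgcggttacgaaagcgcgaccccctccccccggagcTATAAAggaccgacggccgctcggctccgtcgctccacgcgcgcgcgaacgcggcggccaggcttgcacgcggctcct
The Lep window holds a C/EBP match, TTGCGCAA, that begins 55 bases before the start, and a GC box 98 bases before it. In Rbp4 the second window holds a TATA box 28 bases before the start, a C/EBP match on the other strand at 128 bases before it, and GC boxes at 114 and 99 bases before it. None of these letters occurs in the Retn and Cfd windows, nor in the Adipoq window or the first Rbp4 window, which are not printed. The Nampt window, also not printed, holds a nuclear receptor half-site 151 bases before the start and 5 GC boxes. By the GENCODE vM21 annotation of GRCm38, Lep lies at chr6:29060220-29073877, Adipoq at chr16:23146536-23158028, Retn at chr8:3655770-3660110 and Cfd at chr10:79890853-79892655, all on the plus strand. Rbp4 lies at chr19:38116629-38125281 on the minus strand and Nampt at chr12:32819545-32853349 on the plus strand. Nampt is the only one of the 6 whose span overlaps another gene, the noncoding Gdap10, over 5033 bases on the same strand.

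Lep separated Obese fat from all other groups. Obese libraries 1 to 5 had 146334, 89864, 88661, 54354 and 143078 normalized counts of Lep (reads divided by each library's size factor). Control libraries had 5726, 15068, 19224, 14509 and 3863. The lowest Obese library lay above the highest library of every other group, and the highest of those others was an ICR library at 45062. By the fitted difference Lep was 9.92-fold higher in Obese than in Control fat, a log2 difference of 3.31 ± 0.53 (SE) with an adjusted p of 0.000334 in limma with Benjamini-Hochberg adjustment over 19387 genes, the test behind every adjusted p below. The difference was positive in 4 of the 4 lanes that held both groups, from 1.90 to 4.67 (log2). Markers of other cells moved in the same comparison, in which 9.44% of all tested genes rose and 3.44% fell. Endothelium markers rose in 5 of 8 genes, with sums of 34314 to 51058 normalized counts in Obese and 25350.4 to 30648 in Control, and over the 29 libraries their mean had r = 0.698 with Lep (0.613 for deviations from group means), as a description of libraries that share their tissue makeup. Luminal epithelium markers fell in 6 of 18 genes, with sums of 25571 to 39993 in Obese and 32928 to 88054 in Control, and with their mean in the fit Lep stayed called at 2.64 (adjusted p = 0.0198, limma). Brown or beige adipocyte markers fell in 3 of 7 genes, with sums of 255 to 655 in Obese and 333 to 8177 in Control. No marker of these 3 lists was at 0 in either group, and the part of the endothelium and brown or beige adipocyte markers in the Lep difference was not tested.

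Under the diets that followed obesity, Lep was lower than in Obese fat, at levels that overlapped Control fat. ICR libraries had 18855, 45062, 18444, 12403 and 20956 normalized counts of Lep, and MCR libraries had 24824, 7396, 15019 and 25886. LFCR libraries had 39549, 10128, 20015, 16464 and 14479.8, and LFD libraries had 22191, 41848, 13233, 5516 and 6491. Each of these 4 groups overlapped Control, each also had libraries above the highest Control library, and none overlapped Obese. Against Obese fat, the log2 difference was -2.22 ± 0.53 in ICR (adjusted p = 0.00774), -2.58 ± 0.56 in MCR (0.00361), -2.44 ± 0.53 in LFCR (0.00148) and -2.86 ± 0.53 in LFD (0.00256, all limma adjusted p). As folds of these fitted differences, Lep was 4.67-fold lower in ICR, 5.99-fold lower in MCR, 5.43-fold lower in LFCR and 7.27-fold lower in LFD. Ordered by level, the groups ran Obese, ICR, LFCR, MCR, LFD and Control, and every neighbouring pair below Obese overlapped, with an adjusted p of 0.615 or more. Against Obese, 5.23% of all genes fell in ICR, 5.69% in MCR and 9.42% in LFCR. Macrophage markers fell in 4 of 12 genes in ICR, 6 of 12 in MCR and 8 of 12 in LFCR. Their summed level was 29083 to 36323 normalized counts in ICR, 17605 to 33614 in MCR, 12652 to 36084 in LFCR and 35897 to 47234 in Obese, with none of the 12 at 0. With the macrophage marker mean in the fit, Lep was at -1.74 in ICR (adjusted p = 0.0535), -1.62 in MCR (0.242) and -1.40 in LFCR (0.203), and these calls were lost. In LFD against Obese, 11 of 18 luminal epithelium markers rose, where 2.7% of all genes rose. The sums of these markers were 37208 to 143295 normalized counts in LFD and 25571 to 39993 in Obese. With their mean in the fit Lep was at -1.96 ± 0.70 (adjusted p = 0.541).

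**Figure D1:**
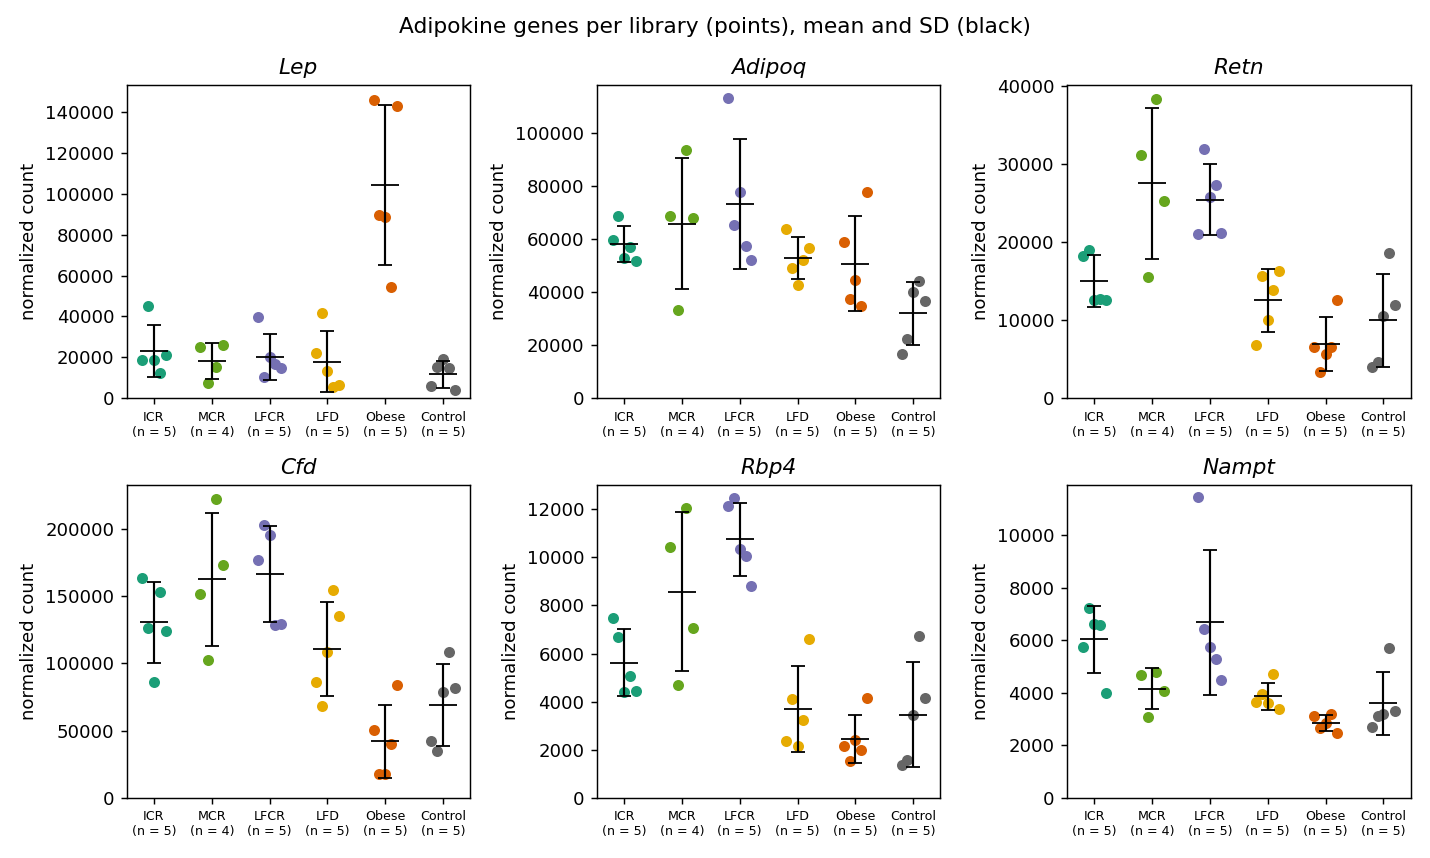
Normalized counts (linear axis from 0) of the 6 genes in each library (points), with the group mean and SD in black, for ICR, MCR, LFCR, LFD, Obese and Control (n = 5 each, 4 for MCR). Lep is high in the 5 Obese libraries alone, while Retn, Cfd and Rbp4 are highest in LFCR and MCR.

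Adipoq, the other hormone that is nearly specific to fat cells, was not called in any diet group against Obese fat. ICR libraries had 59692, 68649, 52915, 56872 and 51469 normalized counts, and MCR libraries had 68801, 33002, 93337 and 67986. LFCR libraries had 113189.7, 65328, 77627, 57397 and 51970.0, and LFD libraries had 63541, 49202, 42737, 51987 and 56683. Obese libraries had 58948, 37384, 44549, 34606 and 77646, and Control libraries had 16533, 22145, 40128, 44071 and 36496. Every diet group overlapped Obese, and Obese overlapped Control, while all ICR and all LFCR libraries lay above all Control libraries. Against Obese fat, the 95% interval of the log2 difference was -0.32 to 0.83 in ICR and -0.26 to 0.96 in MCR. It was -0.03 to 1.11 in LFCR and -0.46 to 0.69 in LFD. With quality weights per library, Adipoq passed the threshold against Obese in MCR (0.84, adjusted p = 0.00178) and LFCR (0.54, adjusted p = 0.0223, limma). Obese minus Control was 0.70 ± 0.28 on the log2 scale (adjusted p = 0.0988, limma), so the threshold was not passed.

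The ratio of Lep to Adipoq sets the 2 hormones side by side within each library. It averaged 0.389 ± 0.164 in ICR, 0.282 ± 0.106 in MCR and 0.266 ± 0.071 in LFCR (SD, n = 5, 4 and 5). LFD averaged 0.346 ± 0.303, Obese 2.06 ± 0.383 and Control 0.388 ± 0.211 (SD, n = 5 each). The Obese libraries ran from 1.57 to 2.48, and the highest library of any other group, an LFD library, was at 0.851. In normalized counts Lep thus exceeded Adipoq in every Obese library and in no other library. These counts are not divided by transcript length, and Lep has 3354 exon bases against 1381 for Adipoq. Per kilobase of exon, Lep exceeded Adipoq only in Obese 1, at 43629.8 against 42685 normalized counts per kilobase.

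**Figure D2:**
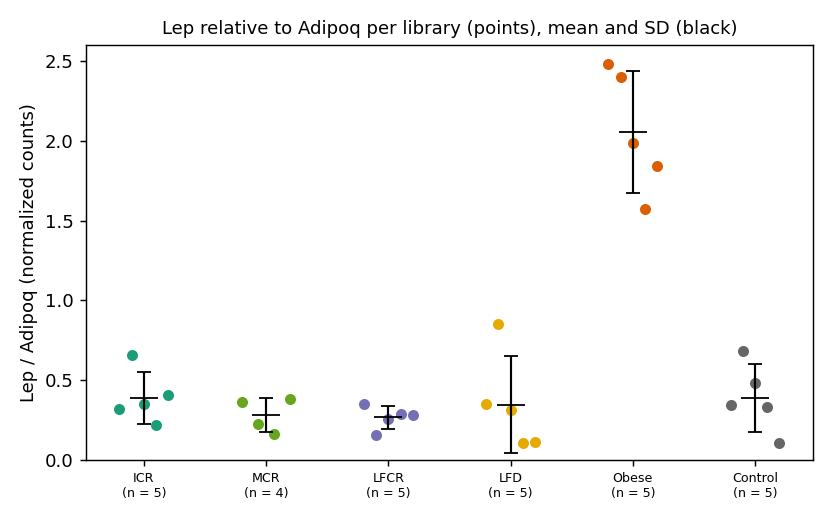
Lep divided by Adipoq (normalized counts, linear axis from 0) in each library (points), with group mean and SD in black, for ICR, MCR, LFCR, LFD, Obese and Control. The 5 Obese libraries lie between 1.57 and 2.48, and the other 24 libraries at or below 0.851.

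Retn was higher in the calorie-restricted groups than in Obese fat. ICR libraries had 18134, 18986, 12495, 12622 and 12593 normalized counts of Retn, and MCR libraries had 31071, 15456, 38349 and 25227. LFCR libraries had 20999.9, 31913, 25716, 27256 and 21155, and LFD libraries had 6809, 15673, 10004, 13898 and 16214. Obese libraries had 6502, 3309, 5618, 6558 and 12566, and Control libraries had 4003, 4659, 10545, 18594 and 11952. MCR and LFCR lay wholly above Obese, ICR overlapped it only at its lowest library, and LFD and Control overlapped it. Retn rose by 1.22 ± 0.36 (log2) in ICR (adjusted p = 0.0322), 2.04 ± 0.38 in MCR (0.00109) and 1.99 ± 0.36 in LFCR (0.000297), against Obese fat in limma. LFD minus Obese was 0.92 (95% interval 0.18 to 1.65, adjusted p = 0.135). The ICR call was lost without ICR 1, ICR 2, ICR 4, Obese 1, Obese 2 or Obese 3 (0.98 to 1.46 over all single omissions, adjusted p up to 0.109) and with lane in the fit (1.12, adjusted p = 0.0635), with luminal epithelium markers (1.16, adjusted p = 0.0893) or with macrophage markers (1.09, adjusted p = 0.111).

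Cfd, which had the highest mean level of the 6 genes per kilobase of exon in every group, was higher in every diet group than in Obese fat. ICR libraries had 163035, 126081, 85744, 153236 and 123723 normalized counts of Cfd, and MCR libraries had 151456, 102706, 222315 and 173051. LFCR libraries had 176571, 202805, 195568, 128277 and 129485, and LFD libraries had 86341, 68065, 108448, 154209 and 135306. Obese libraries had 50035, 17931, 17371, 39931 and 83909, and Control libraries had 42085, 34834, 78293, 108643 and 81654. ICR, MCR and LFCR lay wholly above Obese, while LFD overlapped it at 1 library of each group. Cfd rose by 1.86 ± 0.37 (log2) in ICR (adjusted p = 0.00202), 2.16 ± 0.39 in MCR (0.000826), 2.22 ± 0.37 in LFCR (0.000124) and 1.60 ± 0.37 in LFD (0.0114), against Obese fat in limma. The LFD call was lost with luminal epithelium markers in the fit (0.84, adjusted p = 0.834) and in a fit of LFD and Obese alone (1.60, adjusted p = 0.0908). As a share of the reads assigned to genes, Cfd took 0.435% in LFCR, 0.129% in Obese and 0.225% in Control, on average. Obese minus Control was -0.86 (95% interval -1.61 to -0.10, adjusted p = 0.122). The Cfd difference passed the threshold without Obese 5, the highest of its group (-1.17, adjusted p = 0.0451), and without the 8 libraries low in B cell markers (-1.45, adjusted p = 0.0407). Those 8 include Obese 5 and Obese 1, the Obese libraries with the most Cfd, so leaving them out lowers the Obese mean.

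Rbp4 was highest in LFCR and MCR, the groups that were also highest for Retn and Cfd. ICR libraries had 7492, 6671, 4398, 5085 and 4453 normalized counts of Rbp4, and MCR libraries had 10449.5, 4707, 12064 and 7074. LFCR libraries had 12115, 12461, 10354, 10039 and 8817, and LFD libraries had 2354, 4092, 2167, 3249.6 and 6602. Obese libraries had 2144, 1539, 2406, 1970.5 and 4161, and Control libraries had 1351, 1576, 3432, 6719.8 and 4147. All ICR, MCR and LFCR libraries lay above all Obese libraries, and all LFCR libraries lay above all LFD and all Control libraries. Rbp4 rose by 1.24 ± 0.36 (log2) in ICR (adjusted p = 0.0297), 1.79 ± 0.38 in MCR (0.00342) and 2.20 ± 0.36 in LFCR (0.000122), against Obese fat in limma. LFD minus Obese was 0.55 (95% interval -0.19 to 1.30, adjusted p = 0.432). The ICR call was lost without ICR 1, ICR 2, ICR 4, Obese 1, Obese 2 or Obese 4 (1.10 to 1.45 over all single omissions, adjusted p up to 0.0866) and with lane in the fit (1.19, adjusted p = 0.0589), with luminal epithelium markers (1.23, adjusted p = 0.0702) or with macrophage markers (1.14, adjusted p = 0.0992).

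Nampt, an intracellular enzyme as well as a secreted protein, had the narrowest range of the 6 genes, 4.65-fold over all libraries against 37.9-fold for Lep. ICR libraries had 5744, 7235, 6631, 6578 and 3983 normalized counts of Nampt, and MCR libraries had 4668, 3089, 4784 and 4073. LFCR libraries had 11480.4, 6450.5, 5729, 5278 and 4481, and LFD libraries had 3658, 3947, 3627, 4703 and 3391. Obese libraries had 3131, 2676, 2859, 3200.0 and 2468, and Control libraries had 2687, 3108, 3200.4, 5719.6 and 3304. ICR, LFCR and LFD lay wholly above Obese, and MCR overlapped it at its lowest library. Nampt rose by 1.04 ± 0.21 (log2) in ICR (adjusted p = 0.00227) and 1.14 ± 0.21 in LFCR (0.00034), against Obese fat in limma. The difference was 0.52 in MCR (95% interval 0.06 to 0.97, adjusted p = 0.131) and 0.42 in LFD (95% interval -0.005 to 0.85, adjusted p = 0.252).

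Of the 6 genes, 1 was called between Obese and Control fat, and 4 or 5 were called between each restricted diet and Obese fat. In Obese against Control fat, Lep rose and none fell, where 9.44% of all tested genes rose and 3.44% fell. At an unadjusted p under 0.05 there were 3 of the 6 genes (limma). With quality weights per library, Cfd (-1.58, adjusted p = 0.001) and Retn (-0.99, adjusted p = 0.02) were also called lower. Cfd was called lower too under quantile normalization (-1.07, adjusted p = 0.0202) and with B cell markers in the fit (-1.13, adjusted p = 0.0344). In LFD against Obese fat, Cfd rose and Lep fell, where 2.7% of genes rose and 3.28% fell. In LFCR against Obese fat, 4 rose (Retn, Cfd, Rbp4 and Nampt) and 1 fell (Lep), where 11.9% of genes rose and 9.42% fell. In MCR against Obese fat, 3 rose (Retn, Cfd and Rbp4) and 1 fell (Lep), where 6.66% of genes rose and 5.69% fell. In ICR against Obese fat, 4 rose (Retn, Cfd, Rbp4 and Nampt) and 1 fell (Lep), where 3.99% of genes rose and 5.23% fell. These comparisons share the 5 Obese libraries. The MCR calls were all lost with the macrophage markers in the fit and without the 8 libraries low in B cell markers, which leaves 1 MCR library (Lep at -3.35, adjusted p = 0.115, and Cfd at 2.15, adjusted p = 0.107). In the same fit Retn was at 1.63 (adjusted p = 0.265) and Rbp4 at 1.27 (adjusted p = 0.481).

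**Figure D3:**
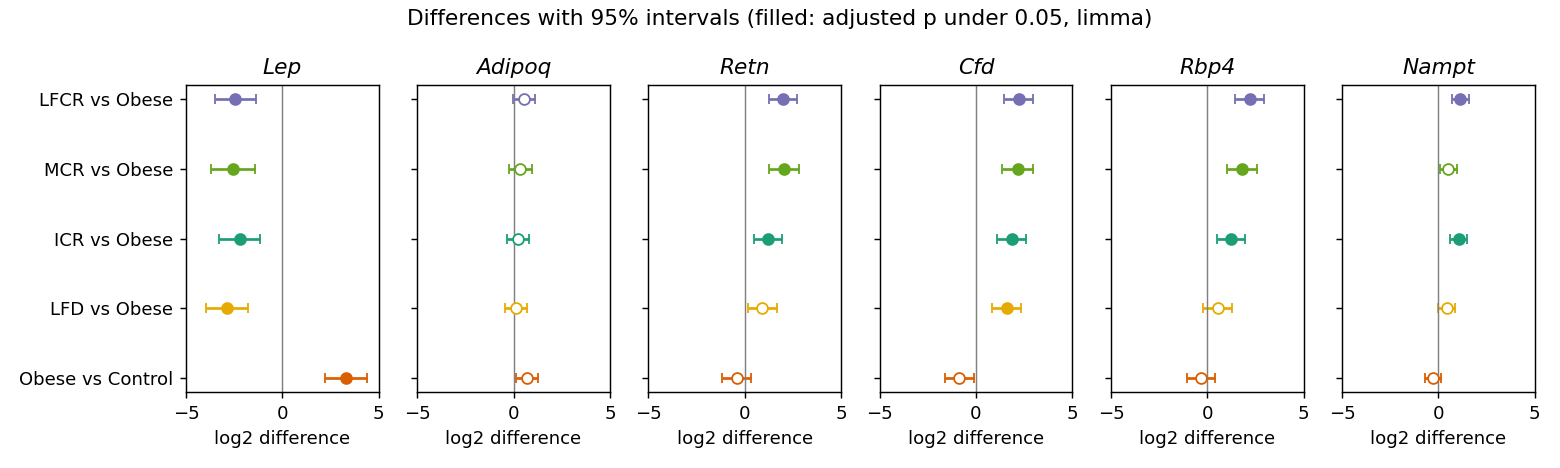
Log2 differences (horizontal axis, linear) of the 6 genes with 95% intervals for LFCR, MCR, ICR and LFD against Obese and for Obese against Control, with filled points at an adjusted p under 0.05 (limma). Lep is negative under all 4 diets and at 3.31 in Obese against Control, while Retn, Cfd and Rbp4 are positive under all 4 diets.

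Set against Control fat, the restricted diets had higher levels of several of the 6 genes, and for LFD no difference was detectable. In ICR against Control, 2 of the 6 genes rose, where 3.69% of genes rose and 0.882% fell. These were Adipoq (0.95 ± 0.28 on the log2 scale, adjusted p = 0.0493) and Nampt (0.76 ± 0.21, adjusted p = 0.0372). In MCR against Control, 4 rose, where 13.9% of genes rose and 15.7% fell, with Adipoq at 1.05 ± 0.30 (adjusted p = 0.017), Retn at 1.62 ± 0.38 (0.00925), Cfd at 1.30 ± 0.39 (0.0207) and Rbp4 at 1.46 ± 0.38 (0.013, all limma adjusted p). In LFCR against Control, 5 rose, where 20.1% of genes rose and 18% fell. The largest of these was Rbp4 at 1.87 ± 0.36 (adjusted p = 0.00102), followed by Retn at 1.56 ± 0.36 (0.00283), Cfd at 1.37 ± 0.37 (0.00751), Adipoq at 1.23 ± 0.28 (0.00251) and Nampt at 0.86 ± 0.21 (0.00409, all limma adjusted p). Lep was not called in any diet group against Control in this fit. Its intervals were 0.01 to 2.17 in ICR, -0.42 to 1.87 in MCR, -0.21 to 1.95 in LFCR and -0.63 to 1.53 in LFD. With quality weights per library, Lep was called higher than Control in ICR (1.40, adjusted p = 0.0443) and MCR (1.31, adjusted p = 0.0332). With the macrophage marker mean in the fit, it was called higher in LFCR (1.49, adjusted p = 0.0385, all limma). In LFD against Control, 0 of the 6 genes and 0% of all genes were called by limma, 1 of the 6 (Adipoq, 0.81 on the log2 scale) had an unadjusted p under 0.05, and limma's voom on recovered reads also called 0.

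The calls in ICR and MCR against Control were less stable than those in LFCR. The Adipoq call in ICR was lost without Control 1, 2 or 5 or any ICR library (0.74 to 1.09, adjusted p up to 0.177), and the Nampt call was lost without Control 1, 2, 3 or 5 or ICR 1, 2, 3 or 4 (0.67 to 0.94, adjusted p up to 0.131). Both ICR calls were also lost with no filter on low values (adjusted p = 0.0649 for Adipoq and 0.0506 for Nampt), with ICR and Control alone in the fit (0.0555 and 0.0593) and with luminal epithelium markers in the fit (0.0559 and 0.0587), and the Adipoq call with lane in the fit (0.0576, all limma adjusted p). Without the 8 libraries low in B cell markers, Cfd was called in ICR against Control (1.01, adjusted p = 0.0321). In MCR, Adipoq and Cfd were lost without Control 1 or 2 or MCR 1, 3 or 4 (0.83 to 1.35 for Adipoq and 1.09 to 1.51 for Cfd), Rbp4 without MCR 1 or 3 (1.19 to 1.77) and Retn without MCR 3 (1.35 to 1.90). B cell markers moved with MCR: 13 of 13 fell against Control, where 15.7% of all genes fell. The sums of these markers were 680 to 84125 normalized counts in MCR and 44991 to 110453 in Control, and none of the 13 was at 0. T cell markers fell as well, in 12 of 12 genes, with sums of 575 to 32992 in MCR and 11047 to 41036 in Control and none at 0, and their part in the MCR differences was not tested. With the B cell marker mean in the fit, 0 of the 6 genes were called in MCR against Control, and in LFCR against Control all 5 calls remained. The share of all genes called in that fit is not given here, so the MCR count has no background beside it. Without the 8 libraries low in B cell markers, which leaves 1 MCR library, the MCR minus Control differences were 0.15 for Adipoq, 0.86 for Retn, 0.70 for Cfd and 0.69 for Rbp4. In LFCR against Control the 5 calls again remained. With MCR and Control alone in the fit, the 4 MCR calls were lost at the same differences (adjusted p from 0.0872 to 0.0978, limma).

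Calorie restriction was compared with the low-fat diet without restriction. In LFCR against LFD, Rbp4 rose by 1.65 ± 0.36 (log2, adjusted p = 0.0115) and Nampt by 0.71 ± 0.21 (adjusted p = 0.033), where 6.29% of genes rose and 3.32% fell. All LFCR libraries lay above all LFD libraries for Rbp4, and the lowest LFCR library (4481) lay below the highest LFD library (4703) for Nampt. Retn also separated the groups without overlap, at 1.07 ± 0.36 with an adjusted p of 0.0579 in limma. With the mean of LFCR, MCR and ICR against LFD, Rbp4 rose by 1.19 ± 0.30 (adjusted p = 0.0298), where 1.68% of genes rose and 1.65% fell. In MCR against LFD 0 of the 6 genes were called by limma or voom (2 at an unadjusted p under 0.05), where 0.294% of genes were called. In ICR against LFD 0 were called by limma or voom (1 at an unadjusted p under 0.05), where 0.0309% of genes were called. In LFCR against LFD, luminal epithelium markers fell in 11 of 18 genes and rose in 1, macrophage markers fell in 4 of 12, and with either mean in the fit neither Rbp4 nor Nampt was called. Both calls were also lost with the adipocyte marker mean in the fit (Rbp4 at 0.82, adjusted p = 0.0692, and Nampt at 0.45, adjusted p = 0.269) and without the 8 libraries low in B cell markers (Rbp4 at 1.47, adjusted p = 0.168, and Nampt at 0.46, adjusted p = 0.352). The Nampt call was lost as well with lane in the fit (0.65, adjusted p = 0.0545), under quantile normalization and with LFCR and LFD alone in the fit. The Rbp4 call for the mean of the 3 restricted diets was lost with lane in the fit (1.13, adjusted p = 0.0699), with luminal epithelium (adjusted p = 0.307), adipocyte (0.64, adjusted p = 0.0708) or macrophage markers (1.09, adjusted p = 0.0962), and without the 8 libraries low in B cell markers (0.79, adjusted p = 0.536). The Nampt call in LFCR was also lost without LFCR 1, 2 or 3 or LFD 1, 3 or 5 (0.50 to 0.84), and the Rbp4 call for the 3 restricted diets was lost without LFD 1, LFD 3, LFD 4 or MCR 3 (1.03 to 1.43).

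Among the restricted diets, none of the 6 genes was called. A single F-test over LFCR, MCR and ICR called 0 of the 6 genes and 0% of all genes in limma (2 of the 6, Nampt and Rbp4, at an unadjusted p under 0.05, and 0 in voom). MCR against LFCR and ICR against LFCR called 0 of 6 with 0% of genes called, and ICR against MCR called 0 of 6 with 0.00516% of genes called. At an unadjusted p under 0.05 there was 1 gene in MCR against LFCR, 2 in ICR against LFCR and 2 in ICR against MCR, and voom called 0 in each. The intervals were wide for Rbp4, at -1.70 to -0.21 (log2) in ICR minus LFCR and -1.19 to 0.38 in MCR minus LFCR.

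Mature adipocyte markers moved with most of the 6 genes. The mean of 18 such markers, which leave out the 6 genes, was 14.9 ± 0.20 (log2) in ICR, 14.9 ± 0.48 in MCR, 15.3 ± 0.26 in LFCR and 14.5 ± 0.26 in LFD. It was 14.3 ± 0.51 in Obese and 13.9 ± 0.74 in Control (SD, n = 5 each, 4 for MCR). Over all genes, 20.1% rose in LFCR against Control, 13.9% in MCR and 3.69% in ICR. Against Obese, 11.9% of all genes rose in LFCR, 6.66% in MCR, 3.99% in ICR and 2.7% in LFD. Of the 18 markers, 18 rose in LFCR against Control, 10 in MCR and 8 in ICR. Against Obese, 10 of the markers rose in LFCR, 5 in MCR, 3 in ICR and 2 in LFD. In Obese against Control, 9.44% of all genes rose and 3.44% fell, and 7 of the 18 markers rose and 1 fell. Their summed level was 1033146 to 1427710.4 normalized counts in ICR, 652829 to 1540617 in MCR, 1117254 to 1923314 in LFCR, 824046 to 1035038 in LFD, 644028 to 1422529 in Obese and 327536 to 861341 in Control, and no marker was at 0. In bulk tissue, fewer fat cells and less RNA per fat cell cannot be told apart. The relation was not particular to adipocyte markers. Over the 29 libraries, the mean of 5 liver markers had r = 0.886 with Retn, 0.883 with Rbp4 and 0.759 with Nampt. The adipocyte mean had 0.852, 0.872 and 0.687 with the same genes. For Adipoq and Cfd the adipocyte mean had the higher r, 0.911 and 0.784 against 0.603 and 0.765.

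With the adipocyte marker mean as a term in the fit, Lep kept its calls and no diet difference from Control was called. That mean ran from 13.1 to 14.6 (log2) in Control, 14.7 to 15.1 in ICR and 14.9 to 15.5 in LFCR. ICR and LFCR thus shared no marker level with Control, and there the term cannot be told apart from diet. What lies behind the lost calls was not tested. Lep in Obese minus Control was 3.06 ± 0.53 (adjusted p = 0.00072), and it remained called against Obese in all 4 diet groups, from -3.07 in LFCR to -2.62 in ICR. Against Control, 0 of the 6 genes were called in LFCR, MCR or ICR, with Rbp4 in LFCR at 0.33 ± 0.28 (adjusted p = 0.873) and Cfd at -0.03 ± 0.34 (adjusted p = 0.994). The share of all genes called in this fit is not given here, so nothing about the 6 genes is read from that count. Retn, Cfd and Rbp4 stayed called in LFCR against Obese (0.89, 1.22 and 1.09) and in MCR against Obese (1.35, 1.53 and 1.09), and Nampt in LFCR (0.79) and ICR (0.82). In LFD against Obese, Cfd stayed called at 1.34 and Retn was called at 0.64 ± 0.20 (adjusted p = 0.0349). In ICR against Obese the Retn and Rbp4 calls were lost (adjusted p = 0.086 and 0.0783). In Obese against Control, 3 genes that were not called without the term fell with it: Cfd at -1.25 ± 0.25 (adjusted p = 0.0021), Retn at -0.86 ± 0.20 (0.00743) and Rbp4 at -0.76 ± 0.20 (0.0159, all limma adjusted p). Relative to these markers, Obese fat therefore had more Lep and less Cfd, Retn and Rbp4 than Control fat, while Adipoq differed by 0.36 ± 0.15 (adjusted p = 0.116).

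**Figure D4:**
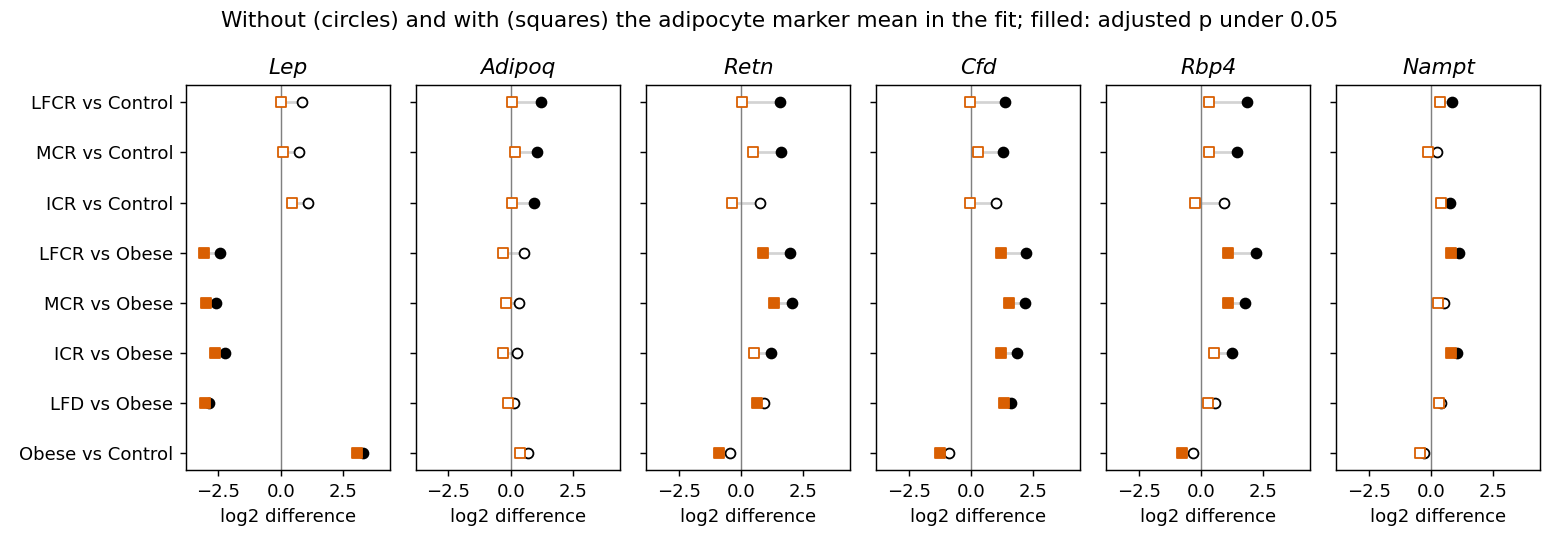
Log2 differences (horizontal axis, linear) of the 6 genes without (circles) and with (squares) the mean of 18 adipocyte markers in the fit, filled at an adjusted p under 0.05 (limma), for 8 comparisons. Differences of the diet groups against Control shrink toward 0 with the term. In Obese against Control, Lep stays at 3.06, while Cfd (to -1.25), Retn, Rbp4 and Nampt move away from 0.

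Per kilobase of exon, the order of the 6 genes differed between groups in the place of Lep. In LFCR the mean level per kilobase was highest for Cfd (180630.2 ± 38711), then Adipoq (52934 ± 17667), Retn (16091 ± 2891), Rbp4 (8009.8 ± 1129), Lep (6001 ± 3408) and Nampt (1322 ± 549) (SD, n = 5). In Obese it was highest for Cfd (45375 ± 29757), then Adipoq (36659 ± 12894), Lep (31144 ± 11755), Retn (4377 ± 2169), Rbp4 (1820.1 ± 752) and Nampt (567 ± 60.7). Control had Cfd (74948 ± 33030.3), Adipoq (23081 ± 8631), Retn (6302 ± 3779), Lep (3482 ± 1961), Rbp4 (2565 ± 1627) and Nampt (713 ± 239). Lep thus stood in place 3 in Obese, 4 in Control and 5 in LFCR, with overlapping spreads between Lep and its neighbours Adipoq in Obese and Rbp4 in LFCR and Control.

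Across the 29 libraries, the levels of the genes other than Lep were positively related, less closely for Nampt within groups. Permutations ran over all libraries without regard to group, so differences between groups enter the p-values below. The deviations from group means were not tested. Retn and Rbp4 were the closest pair, with Pearson's r = 0.956 and Spearman's rho = 0.952 (permutation p = 1e-05, the smallest that 100000 resamples can give, and 3e-05 adjusted over 15 pairs for both). Without the 2 libraries farthest from the median of Retn r was 0.949, without the 8 libraries low in B cell markers it was 0.952, and for deviations from the group means it was 0.924. Retn and Cfd gave r = 0.884 and rho = 0.866 (permutation p = 1e-05, adjusted 3e-05 for both), r = 0.848 without the 2 farthest libraries and 0.754 for the deviations. Of the 10 pairs without Lep, Adipoq and Nampt had the lowest r over all libraries, 0.602 (permutation p = 0.00061, adjusted 0.000915), rho = 0.576 (0.00134, adjusted 0.00201), and r = 0.575 without the 2 farthest libraries. For deviations from the group means this pair had r = 0.580, and the other Nampt pairs were lower, at 0.315 with Cfd, 0.373 with Retn and 0.441 with Rbp4. No pooled value is given for Lep, since its Obese libraries stand apart, and its deviations from group means had r = 0.47 with Adipoq, 0.30 with Nampt, 0.15 with Rbp4, 0.13 with Retn and -0.04 with Cfd, as a description. These libraries share the adipocyte marker level, with which the deviations of Adipoq had r = 0.876. They also had r = -0.734 with B cell markers, -0.793 with T cell markers and 0.772 with endothelium markers. The deviations of Lep had r = -0.538 with B cell markers and -0.592 with T cell markers.

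**Figure D5:**
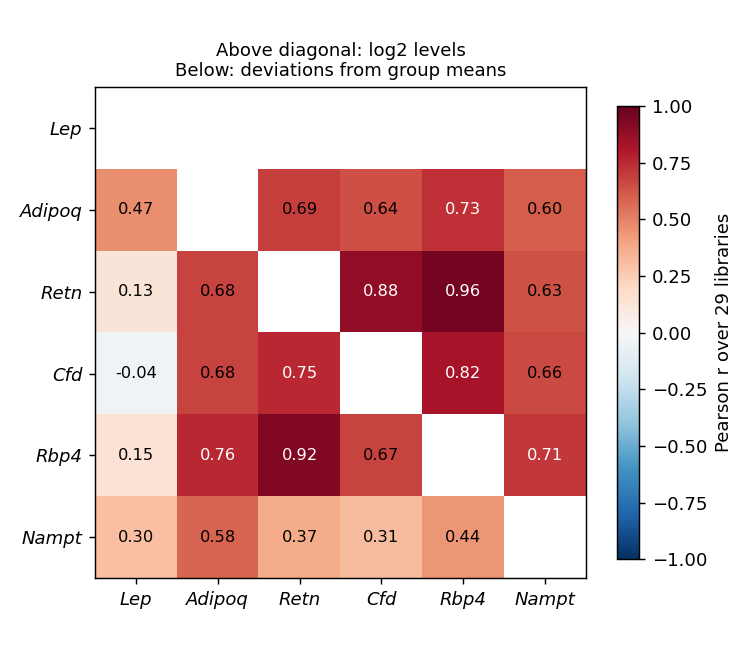
Pearson's r between the 6 genes over 29 libraries, above the diagonal for log2 levels (Lep left blank) and below it for deviations from group means. Retn and Rbp4 are at 0.96 above and 0.92 below the diagonal, and Lep and Cfd at -0.04 below it.

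Over 14698 genes whose normalized count averaged at least 50, the 3 whose log2 levels were most like each gene over the 29 libraries were also found, as a description. For Lep they were A430105I19Rik (r = 0.959), Sptbn1 (0.941), a spectrin, and Bmp3 (0.937), a bone morphogenetic protein. For Adipoq they were Fabp4 (0.972), the fatty acid binding protein of fat cells, Enpp5 (0.967) and Pon3 (0.963). Retn went with Slc2a4 (0.963), the insulin-regulated glucose transporter, and with Echs1 (0.963) and Ivd (0.954), enzymes of fatty acid and leucine breakdown. Cfd went with Slc43a1 (0.938), an amino acid transporter, Echdc3 (0.927) and Sod1 (0.915), superoxide dismutase. Rbp4 went with A530016L24Rik (0.967), Tmem179 (0.962) and D10Jhu81e (0.961), and Nampt with Usp33 (0.910) and Usp2 (0.894), ubiquitin proteases, and Acsm5 (0.899). Fabp4 and Slc2a4 also belong to the adipocyte marker list.

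Among other factors that fat cells secrete, rises outnumbered falls in Obese fat and falls outnumbered rises under the diets. Of 31 tested, 15 rose and 1 fell in Obese against Control (median log2 difference 0.75, against -0.03 over all genes), where 9.44% of all tested genes rose and 3.44% fell. In LFCR against Obese 3 rose and 13 fell (median -0.70, against -0.04), in MCR 3 rose and 11 fell, in ICR 1 rose and 9 fell, and in LFD 2 rose and 6 fell. Over all genes the shares that rose and fell were 11.9% and 9.42% in LFCR, 6.66% and 5.69% in MCR, 3.99% and 5.23% in ICR, and 2.7% and 3.28% in LFD. Sfrp5, a secreted Wnt inhibitor, averaged 16356 ± 8289 normalized counts in Obese and 661 ± 567 in Control (SD, n = 5 each), a log2 difference of 4.90 ± 0.75 (adjusted p = 0.000237). Wisp2, now called Ccn5, averaged 2640.2 ± 1399.5 in Obese and 362 ± 168 in Control (adjusted p = 3.98e-06), and Apln, the peptide hormone apelin, averaged 556 ± 245 in Obese and 146 ± 61.9 in Control (adjusted p = 0.000259, limma). Nrg4, a growth factor from fat cells, went the other way, at 5322 ± 903 in LFCR and 937 ± 196 in Obese (adjusted p = 2.05e-05, limma).

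Genes of the systems that these proteins act in were counted in the same way, beside 9.44% of all genes that rose and 3.44% that fell in Obese against Control, and 11.9% that rose and 9.42% that fell in LFCR against Obese. Of 13 alternative complement genes, Cfd left out, 5 rose and 0 fell in Obese against Control, and 0 rose and 5 fell in LFCR against Obese. Cfb, the substrate of complement factor D, averaged 9211 ± 1589 normalized counts in Obese and 6416 ± 1682 in Control (adjusted p = 0.0222), and 5328 ± 576 in LFCR against 9211 in Obese (adjusted p = 0.000712), so it moved opposite to Cfd in LFCR. Of 12 receptors, 3 rose and 0 fell in Obese against Control, led by C3ar1, a complement receptor that macrophages carry (adjusted p = 0.00835), and 0 rose and 5 fell in LFCR against Obese. The leptin receptor Lepr was called in neither. Of 13 leptin signalling genes, 1 rose and 1 fell in Obese against Control, and 1 rose (Stat5a) and 4 fell in LFCR against Obese. Of 11 genes for adiponectin assembly and secretion, 4 rose and 0 fell in Obese against Control, and 1 rose and 1 fell in LFCR against Obese. Of 22 retinol genes, 1 rose (Aldh1a1, a retinal dehydrogenase) and 1 fell (Lrat, which stores retinol as esters) in Obese against Control, and 1 rose and 2 fell in LFCR against Obese. Counts of 1 or 2 genes in these short lists are near those shares, and nothing is read from them. The lists share members: C3ar1 and C5ar1 stand in the receptor and complement lists, Stra6 and Stra6l in the receptor and retinol lists, Cdh13 in the receptor and adiponectin lists, Lepr in the receptor and leptin lists, and Sirt1 in the adiponectin and NAD lists.

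Of 22 tested genes of NAD synthesis and use, Nampt left out, 9 rose and 2 fell in LFCR against Obese, 5 rose and 1 fell in MCR, and 1 rose and 1 fell in ICR. The shares over all genes were 11.9% and 9.42% in LFCR, 6.66% and 5.69% in MCR and 3.99% and 5.23% in ICR, so the ICR counts are near the background. Nmnat3, which makes NAD from the product of Nampt, averaged 596 ± 81.9 normalized counts in LFCR and 259 ± 10.6 in Obese (adjusted p = 1.09e-05, limma). In Obese against Control 3 rose and 0 fell, and Nnmt, which methylates nicotinamide, averaged 2227 ± 851 in Obese and 1045 ± 432 in Control (adjusted p = 0.0164, limma). Of 15 regulators of adipokine genes, 0 were called in Obese against Control (limma), and 6 rose and 0 fell in LFCR against Obese, 5 rose and 0 fell in MCR, and 2 rose and 0 fell in ICR. Srebf1, a lipogenic transcription factor, averaged 13689.5 ± 3429.96 normalized counts in LFCR and 4211 ± 672 in Obese (adjusted p = 0.000319). Pparg, the master regulator of fat cells, averaged 8180.4 ± 2007 in LFCR and 3937 ± 1289 in Obese (adjusted p = 0.00548, limma), and it and Cebpa are also adipocyte markers. Of the 3 other resistin family genes, Retnla and Retnlg were tested and Retnlb was below the minimum, and Retnlg fell in LFCR against Obese (adjusted p = 0.0225, limma). Retnlg is also a neutrophil marker, and 4 of 9 tested neutrophil markers fell in that comparison, where 9.42% of all genes fell.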

How the data were processed

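TRIzol extraction of total RNA, a TruSeq stranded library kit and paired reads of 76 bases on an Illumina HiSeq are given per the labels' protocols. The submitters' processing notes name TopHat2 2.0.7, HTSeq 0.5.3p9, DESeq2 and the build mm10, without their roles. Annotation, counting options and transform: not given in the sources used here.

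Log2 values, from 3.75 to 22.0, fill the table deposited by the authors. Inverting a variance-stabilising transform in which the lowest value stands for 0 reads returned whole reads for 100% of values (tolerance 0.01), and from these the normalized counts were taken. The transform is thus inferred from the values. It compresses low values, so log2 differences understate the change of low genes, though each of the 6 genes lies far above that range. Since the values are log2 and not counts, no edgeR or DESeq2 test was run, and limma's voom on recovered reads was an alternative.

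Genes with a normalized count of 10 or more in at least 4 libraries were kept (19387). All 29 libraries entered 1 fit in limma 3.58.1 (R 4.3.3, with statmod 1.5.0), which had a mean for each of the 6 groups, trend and robust moderation, 23 residual degrees of freedom and 17 comparisons, and the threshold was an adjusted p of 0.05. The fit was tested on simulated data. Each list was described by counts only. Named genes were the 6 members, the 3 genes most like each, and, per list and comparison, up to 4 called genes of smallest adjusted p. Gdap10 and Lepr, and the markers counted, were named outside that rule. The members and lists were chosen with earlier results of these data known. Genes were matched by symbol to GENCODE vM21 and RefSeq. Further marker lists were not used in the text. Alternatives changed the filter, scale, normalization, weights, samples and covariates.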

Additional observations from a re-analysis of the deposited data

Results flagged for a closer look

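Nampt in the Control libraries had 1 library apart from the others. Control 4 had 5719.6 normalized counts and the other 4 Control libraries had 2687 to 3304, and on the log2 scale the gap to the nearest was 0.727 of the whole range. This was the only one of 36 sets of libraries (6 genes in 6 groups) that stood out in this way, and chance flags about 1 in 20. The part of this library in the Nampt results was read from leaving it out: the Obese minus Control difference of Nampt then lay at -0.10 on the log2 scale and stayed under the threshold.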

How the results depend on the processing

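Replicate numbers were given in the order of the samples and pair nothing across groups, so they were not used as a block. Sequencing lane, which held at most 1 library of a group, could be blocked on, and with lane as a term 26 of 31 called differences stayed called and 5 lost the call. The log2 differences held their direction widely: of 31 called differences, 260 of 311 values with 1 library left out stayed called and 51 lost the call, and under 13 other settings 336 of 403 stayed called, 66 lost the call and 1 reversed. That was Cfd in LFCR minus Control with the adipocyte marker mean in the fit (log2 difference -0.029, adjusted p = 0.994). Among 47 differences not called, 34 values passed the threshold in some setting (6 with 1 library left out, 28 otherwise) and 43 changed sign (4 and 39).

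The number of the 6 genes called moved with several settings, with only the larger moves listed here, and the cause was not tested. The share of all genes called under each setting is not given here, so these counts have no background beside them. With the adipocyte marker mean in the fit it was 4 in Obese vs Control, 3 in ICR vs Obese, 0 in LFCR, MCR and ICR vs Control, 0 in LFCR vs LFD and for the mean of LFCR, MCR and ICR vs LFD, and 1 in ICR vs MCR. With luminal epithelium markers it was 0 in LFD vs Obese, 3 in ICR vs Obese, 1 in ICR vs Control, and 0 in LFCR vs LFD and for the mean vs LFD. With macrophage markers it was 0 in MCR vs Obese, 2 in ICR vs Obese, and 0 in LFCR vs LFD and for the mean vs LFD. With B cell markers it was 2 in Obese vs Control and 0 in MCR vs Control. Without the 8 libraries low in B cell markers it was 2 in Obese vs Control and 0 in MCR vs Obese, MCR vs Control, LFCR vs LFD and the mean vs LFD. With quality weights per library, Adipoq and Nampt joined the calls in MCR vs Obese, and Adipoq those in LFCR vs Obese. With these weights the number called was 3 in Obese vs Control, 4 in LFD vs Obese, 4 in ICR vs Control and 3 in MCR vs LFD. It was 1 in ICR vs MCR, 3 for the mean vs LFD and 1 in the F-test. With lane as a term it was 3 in ICR vs Obese, 1 in ICR vs Control, 1 in LFCR vs LFD and 0 for the mean vs LFD. With only the compared groups in the fit it was 1 in LFD vs Obese, 0 in MCR vs Control, 0 in ICR vs Control and 2 for the mean vs LFD. Quantile normalization gave 2 in Obese vs Control and 1 in LFCR vs LFD, and no filter on low values gave 0 in ICR vs Control. A stricter filter, log2(normalized count + 1) and voom moved none of these counts. With 1 library left out, the count ran from 1 to 2 in Obese vs Control, 3 to 5 in ICR vs Obese, 0 to 4 in MCR vs Control, 0 to 3 in ICR vs Control, 1 to 2 in LFCR vs LFD, 0 to 2 in MCR vs LFD and 0 to 2 for the mean vs LFD. The Obese vs Control count of 2 came without Obese 5, and the MCR vs LFD count of 2 without MCR 2. Depth does not limit the 6 genes, which had at least 1322 reads in each library.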
